A study of Mus musculus with 15 samples.

Results

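The mammalian apparent LTR retrotransposons (MaLRs) were followed in RNA of mouse embryonic stem (ES) cells. The members were the rows of a repeat count table whose names begin with MTA to MTE, ORR1 or MLT and whose mean raw count over the 15 libraries was at least 20. By name 111 of the 1217 rows matched, 33 lay under the minimum and 78 were kept, and all 78 also passed the filter on low counts that preceded the tests. There were 19 MT rows, 25 ORR1 rows, 26 MLT1 rows and 8 MLT2 rows. The usual repeat classification places MLT2 with the ERVL family and not with the MaLRs, so MLT2 values are given apart. A subfamily's internal region carries "-int" in its name and its long terminal repeat (LTR) does not, which made 24 internal and 54 LTR rows. All but MLT-int of the internal rows belong to MT and ORR1.

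MaLRs are non-autonomous relatives of the ERVL endogenous retroviruses. Their internal region codes for no reverse transcriptase, and they are thought to have moved with proteins supplied by ERVL elements. Their LTRs hold promoters and polyadenylation signals. MT and ORR1 expanded in rodents, where MT transcripts are abundant in oocytes and MT LTRs serve as promoters and first exons of host genes, while MLT1 is an old group shared by placental mammals.

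The cells were of the E14 line, unsorted, and every group, controls included, received an antisense oligonucleotide (ASO) by nucleofection and then an siRNA. LINE1 siDux denotes LINE1 ASO with siDux, LINE1 control denotes LINE1 ASO with siControl, RC siNcl denotes RC ASO with siNcl, RC siDux denotes RC ASO with siDux, and RC control denotes RC ASO with siControl. The dose was 5 nmol of ASO, with 100 pmol of siRNA per well 7 h later and collection on day 2, and each group had 3 libraries. LINE1 is the most abundant family of autonomous retrotransposons in the mouse genome, Dux encodes a transcription factor that activates genes and ERVL repeats of the 2-cell embryo, and Ncl encodes nucleolin, an RNA-binding protein of the nucleolus. The design asks how targeting LINE1 RNA or Ncl alters expression and how much of the LINE1 response depends on Dux.

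Gene counts came to 9.55 M to 27.6 M per library, and repeat counts to 5.81% to 8.49% of them. Depth went with the ASO, since every LINE1 ASO library had 17.43 M gene counts or more and every RC ASO library 17.39 M or less. ERCC spike-in counts also varied within groups, at 0.303%, 0.647% and 0.531% of gene counts in RC control and 0.273%, 0.423% and 0.523% in RC siDux. CPM, read counts relative to the gene counts of a library, are scaled by the trimmed mean of M-values (TMM). Ncl lay at 516 to 644 CPM in RC siNcl and at 3219.9 CPM or more in every other library. Dux had 2, 0 and 5 counts in RC siDux, against 4, 1 and 3 counts in RC control, so that its knockdown there was not detectable at this depth, and 19, 11 and 12 counts in LINE1 siDux against 25, 18 and 24 counts in LINE1 control. The 6 L1Md rows, young LINE1 elements, summed to 5399 to 8388 CPM in LINE1 control, against 3621 to 6837 CPM in RC control. LINE1 ASO libraries were not the lower ones, and the sum therefore gives no check of the ASO label. All 8 ES cell markers were detected, with Pou5f1, a core pluripotency factor, between 705 and 1567 CPM. Of 8 oocyte markers, 1 had no count in any group, and their sum stayed between 5.18 and 10.6 CPM, most of it Zp3. Summed fibroblast markers were at 27.8 to 36.9 CPM in LINE1 siDux and 32.5 to 36.9 CPM in LINE1 control. They were at 43.0 to 52.3 CPM in RC siNcl, 40.5 to 51.5 CPM in RC siDux and 30.8 to 59.9 CPM in RC control. Summed endoderm markers were at 7.81 to 10.8 CPM in LINE1 siDux, 4.89 to 8.56 CPM in LINE1 control, 5.14 to 11.2 CPM in RC siNcl, 7.32 to 9.62 CPM in RC siDux and 3.92 to 6.56 CPM in RC control. In bulk RNA, fewer cells of a type and less RNA per cell cannot be told apart. Whether the 3 libraries of a group are separate cultures is not stated, so p-values cover the spread among these libraries alone, which may be technical.

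MaLR rows held 3.78% to 5.64% of the repeat counts of a library. MTA_Mm-int alone gave 14.2% of all member counts, MTA_Mm 7.07% and MTD 7.05%, and the 9 most counted rows gave 50.4%. MTA is a young, mouse-specific MT subfamily and MTD an older one. Summed MT rows stood at 1572, 1528 and 1308 CPM in LINE1 siDux, 1587, 1483 and 1309.5 CPM in LINE1 control, 1570.1, 1489 and 1379 CPM in RC siNcl, 1473, 1498 and 1259 CPM in RC siDux, and 1397, 1862 and 1230.1 CPM in RC control. Summed ORR1 rows averaged 1193 ± 110 CPM in LINE1 siDux, 1186 ± 132 CPM in LINE1 control, 1305 ± 121 CPM in RC siNcl, 1126 ± 85.1 CPM in RC siDux and 1194 ± 287 CPM in RC control (SD, n = 3 each). For both classes the libraries of all 5 groups overlapped.

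**Figure D1:**
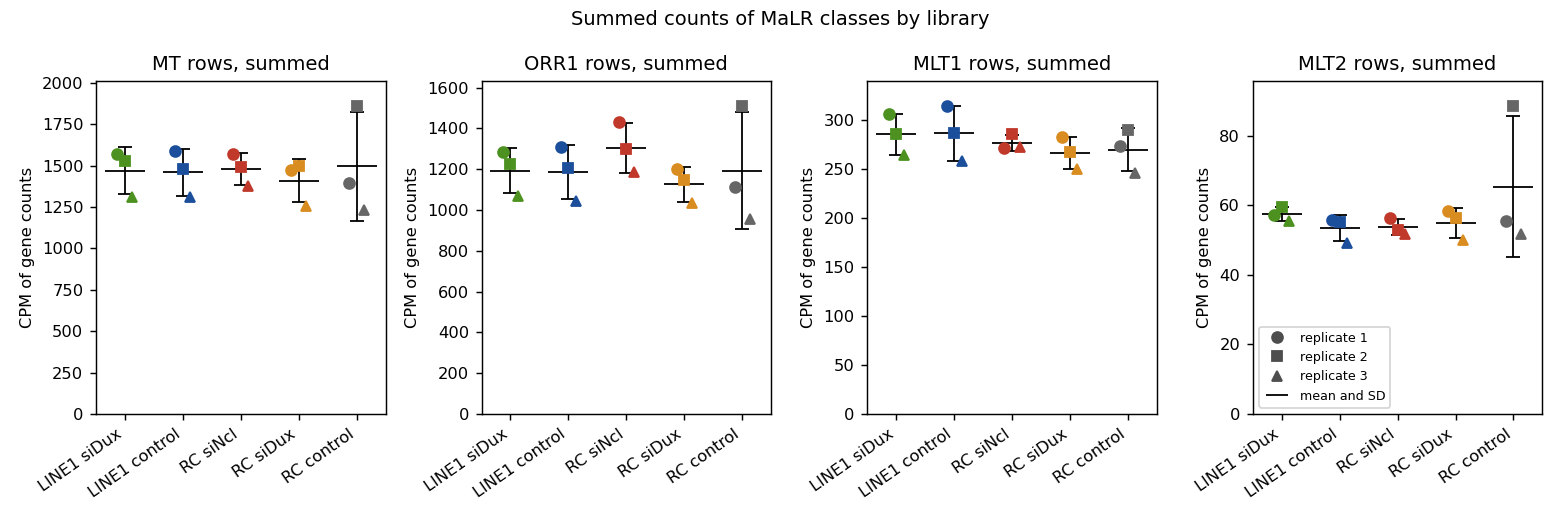
Summed CPM of gene counts (vertical axis) of the MT, ORR1, MLT1 and MLT2 rows in each library, by group (horizontal axis), with mean and SD over 3 libraries as lines. RC control replicate 2 is the highest of 15 libraries for MT (1862 CPM), ORR1 (1512 CPM) and MLT2 (88.7 CPM) but not for MLT1.

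One control library stood apart in MaLR RNA. RC control replicate 2 held 5.64% of its repeat counts in MaLR rows, against at most 4.19% in the other 14 libraries. It had the highest CPM of the 15 libraries in 21 of 54 LTR rows and 6 of 24 internal rows. Relative to the mean of RC control replicates 1 and 3, all 12 ORR1 LTR rows were higher in it, with a median ratio of 1.52, whereas the median ratio of the 25 MLT1 LTR rows was 0.875. ORR1A3 was at 2.11 times that mean. Its TMM factor was also the lowest, at 0.874 against 0.965 to 1.07 elsewhere, and its summed ES cell markers the highest, at 6670 CPM, with Dppa5a at 3311 CPM against 1227 and 906 CPM in RC control replicates 1 and 3. The part of these differences in the results was not tested beyond leaving the library out.

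LINE1 ASO was first compared with RC ASO under siControl. Of the 78 members 3 rose, against 5% of the 800 repeat rows tested, and none of these 3 was among the 9 most counted rows. ORR1A3-int is the internal region of a mouse ORR1 subfamily. It was at 38.9, 34.9 and 38.4 CPM in LINE1 control, against 21.3, 28.9 and 17.9 CPM in RC control. The groups did not overlap, and the log2 change was 0.73 ± 0.16 (SE, edgeR quasi-likelihood test with Benjamini-Hochberg adjustment, adjusted p = 0.0107), a 1.65-fold rise.

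ORR1D1-int, the internal region of an older ORR1 subfamily, was at 9.84, 7.56 and 5.87 CPM in LINE1 control, against 3.38, 5.26 and 3.56 CPM in RC control (log2 change 0.94 ± 0.21, edgeR adjusted p = 0.0131). Every LINE1 control library was above every RC control library. MLT1G, an old LTR, had 77, 61 and 42 counts in LINE1 control, against 15, 13 and 22 counts in RC control, which in CPM was 3.95, 2.78 and 2.42 against 1.54, 1.24 and 1.31 (log2 change 1.17 ± 0.28, adjusted p = 0.0162). MLT1G reached the count minimum only because the LINE1 ASO libraries were counted in its mean. MLT2B1 had a similar log2 change of 1.02 ± 0.30 and did not pass (adjusted p = 0.0502).

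The abundant MaLR rows stayed within the spread. MTA_Mm-int was at 445, 442 and 387 CPM in LINE1 control, against 415, 686 and 376 CPM in RC control (log2 change -0.21 ± 0.17, adjusted p = 0.416), the lowest value among MT rows. The highest among MT rows was 0.38 ± 0.19 for MTEa-int (adjusted p = 0.211). ORR1A3, the LTR of the element whose internal row rose, had the lowest value among ORR1 rows, -0.44 ± 0.21 (adjusted p = 0.179), with 43.8, 42.3 and 36.4 CPM in LINE1 control against 43.1, 85.7 and 38.1 CPM in RC control. MLT1G3 was lowest among MLT1 rows (-0.23 ± 0.19) and MLT2B5 among MLT2 rows (-0.60 ± 0.22, adjusted p = 0.0978), where RC control replicate 2 alone was at 47.7 CPM and no other library was above 23.8 CPM.

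By class the median log2 change in LINE1 control was 0.12 for MT, 0.04 for ORR1, 0.21 for MLT1 and 0.01 for MLT2, beside 0.20 for all repeat rows tested. Without RC control replicate 2 the medians of MT and ORR1 were 0.23 and 0.24, beside 0.20 for all repeat rows, and with repeats scaled by their own totals they turned to -0.05 and -0.13, beside 0.02 for all. Groups did not overlap in 6 members that were higher and 1 that was lower in LINE1 control, against 17.9% and 4.5% of all rows tested.

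The 3 calls ended when libraries were scaled to the ERCC spike-ins, when only the 6 libraries compared were fitted, and without LINE1 control replicate 1, while without LINE1 control replicate 3 there were 6 higher members. MLT1G also failed without RC control replicate 2 or replicate 3, and its log2 change lay between 0.95 and 1.31 over the libraries left out one at a time. Scaled by the repeats' own totals, ORR1A3-int failed.

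ES cell markers moved in the same comparison. Pou5f1, Sox2, Utf1 and Dppa5a, 4 of the 8, were lower in LINE1 control, with edgeR log2 changes of -0.65 ± 0.13, -0.27 ± 0.09, -0.70 ± 0.14 and -1.06 ± 0.32. Dppa5a overlapped, at 867, 928 and 811 CPM in LINE1 control against 1227, 3311 and 906 CPM in RC control. No library was left out in the tests of genes. The summed level was 3042 to 3316 CPM in LINE1 control, against 3503 to 6670 CPM in RC control, where replicate 2 was highest. Mean Klf4, Esrrb and Tfcp2l1 were higher in LINE1 control (149, 421 and 231 CPM against 127, 416 and 214 CPM), and the other means were lower. None of the 4 endoderm markers tested passed by edgeR (median log2 change 0.62). The part of these markers in the MaLR values was not tested.

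Depletion of Ncl was compared with siControl under RC ASO, with the same RC control libraries. Here 5 members rose, against 6.12% of rows, and 1 fell, against 1.38%, or 6 in all against 7.5%. The 4 that rose among MT and ORR1 rows were all internal rows. ORR1A3-int was at 40.9, 34.4 and 50.6 CPM in RC siNcl, against 21.3, 28.9 and 17.9 CPM in RC control. Its log2 change was 0.89 ± 0.16 (edgeR adjusted p = 0.00227), a 1.86-fold rise with no overlap, and RC siNcl replicate 3 was the highest of all libraries.

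MTC-int is the internal region of an MT subfamily of intermediate age. It was at 51.5, 47.3 and 42.7 CPM in RC siNcl, against 30.9, 32.7 and 25.1 CPM in RC control, and rose 1.60-fold without overlap (log2 change 0.68 ± 0.14, adjusted p = 0.00489). ORR1A1-int was at 69.5, 61.9 and 61.7 CPM in RC siNcl, against 36.3, 55.4 and 32.4 CPM in RC control (log2 change 0.64 ± 0.16, adjusted p = 0.0189). For ORR1A2-int the values were 73.4, 73.9 and 66.3 CPM in RC siNcl against 50.1, 58.2 and 40.0 CPM in RC control (0.53 ± 0.15, adjusted p = 0.0382). In both ORR1A rows every RC siNcl library was above every RC control library.

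Among the old LTRs, MLT1C was at 18.6, 20.4 and 17.8 CPM in RC siNcl, against 14.3, 11.8 and 13.3 CPM in RC control (log2 change 0.53 ± 0.14, adjusted p = 0.0233). MLT1G3 fell to 3.83, 3.75 and 4.14 CPM in RC siNcl, against 5.54, 8.62 and 6.30 CPM in RC control (-0.79 ± 0.20, adjusted p = 0.0209). These 2 MLT1 rows moved in opposite directions, each without overlap.

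MTB_Mm-int, of a young mouse MT subfamily, had the highest value among MT rows but did not pass. It was at 7.13, 8.11 and 7.48 CPM in RC siNcl, against 3.79, 5.46 and 2.79 CPM in RC control (log2 change 0.95 ± 0.30, adjusted p = 0.0534). Lowest were MTE2a among MT rows (-0.21 ± 0.14) and ORR1A3 among ORR1 rows (-0.31 ± 0.21). Among MLT2 rows the range ran from -0.80 ± 0.32 for MLT2B4 to 0.62 ± 0.35 for MLT2B2, neither of which passed. MTA_Mm-int and MTA_Mm again stayed within the spread, with log2 changes of -0.21 and -0.09.

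Class medians in RC siNcl were 0.11 for MT, 0.10 for ORR1, 0.12 for MLT1 and -0.18 for MLT2, beside 0.14 for all repeat rows. Without RC control replicate 2 the MT median was 0.22 and the ORR1 median 0.32, beside 0.15 for all, and with repeats scaled by their own totals they were -0.02 and -0.04, beside 0.00 for all. Groups did not overlap in 11 members that were higher and 3 that were lower in RC siNcl, against 21.1% and 6.88% of all rows.

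The calls for ORR1A3-int (log2 change 0.74 to 1.11) and MTC-int (0.57 to 0.75) held when any 1 of the 6 libraries was left out. The number of higher members dropped to 2 without RC control replicate 3 or RC siNcl replicate 1 and to 3 without RC control replicate 1, RC siNcl replicate 2 or RC siNcl replicate 3, and MLT1G3 failed without RC control replicate 2 (-0.61) or any of the RC siNcl libraries. All calls ended with ERCC scaling and when only these 6 libraries were fitted.

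Markers moved here too. Pou5f1 and Dppa5a were lower in RC siNcl (edgeR log2 change -0.68 ± 0.13 and -0.90 ± 0.32). Dppa5a overlapped, at 1099, 1084 and 729 CPM in RC siNcl against 1227, 3311 and 906 CPM in RC control. The 8 ES cell markers summed to 2726 to 3429 CPM in RC siNcl, against 3503 to 6670 CPM in RC control, where replicate 2 was highest. Mean Nanog and Klf4 were higher in RC siNcl (22.2 and 136 CPM against 19.8 and 127 CPM), and the other means were lower. Gata6, a transcription factor of primitive endoderm, was higher in RC siNcl (1.49 ± 0.50, edgeR adjusted p = 0.0325). Its level was 6.71, 1.92 and 1.67 CPM in RC siNcl, against 1.64, 0.67 and 1.19 CPM in RC control, so replicate 1 stood far above the others. The median of the 4 endoderm markers tested was 0.71, but mean Foxa2 was lower in RC siNcl, at 0.196 CPM against 0.499 CPM. Their part in the MaLR values was not tested either.

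**Figure D2:**
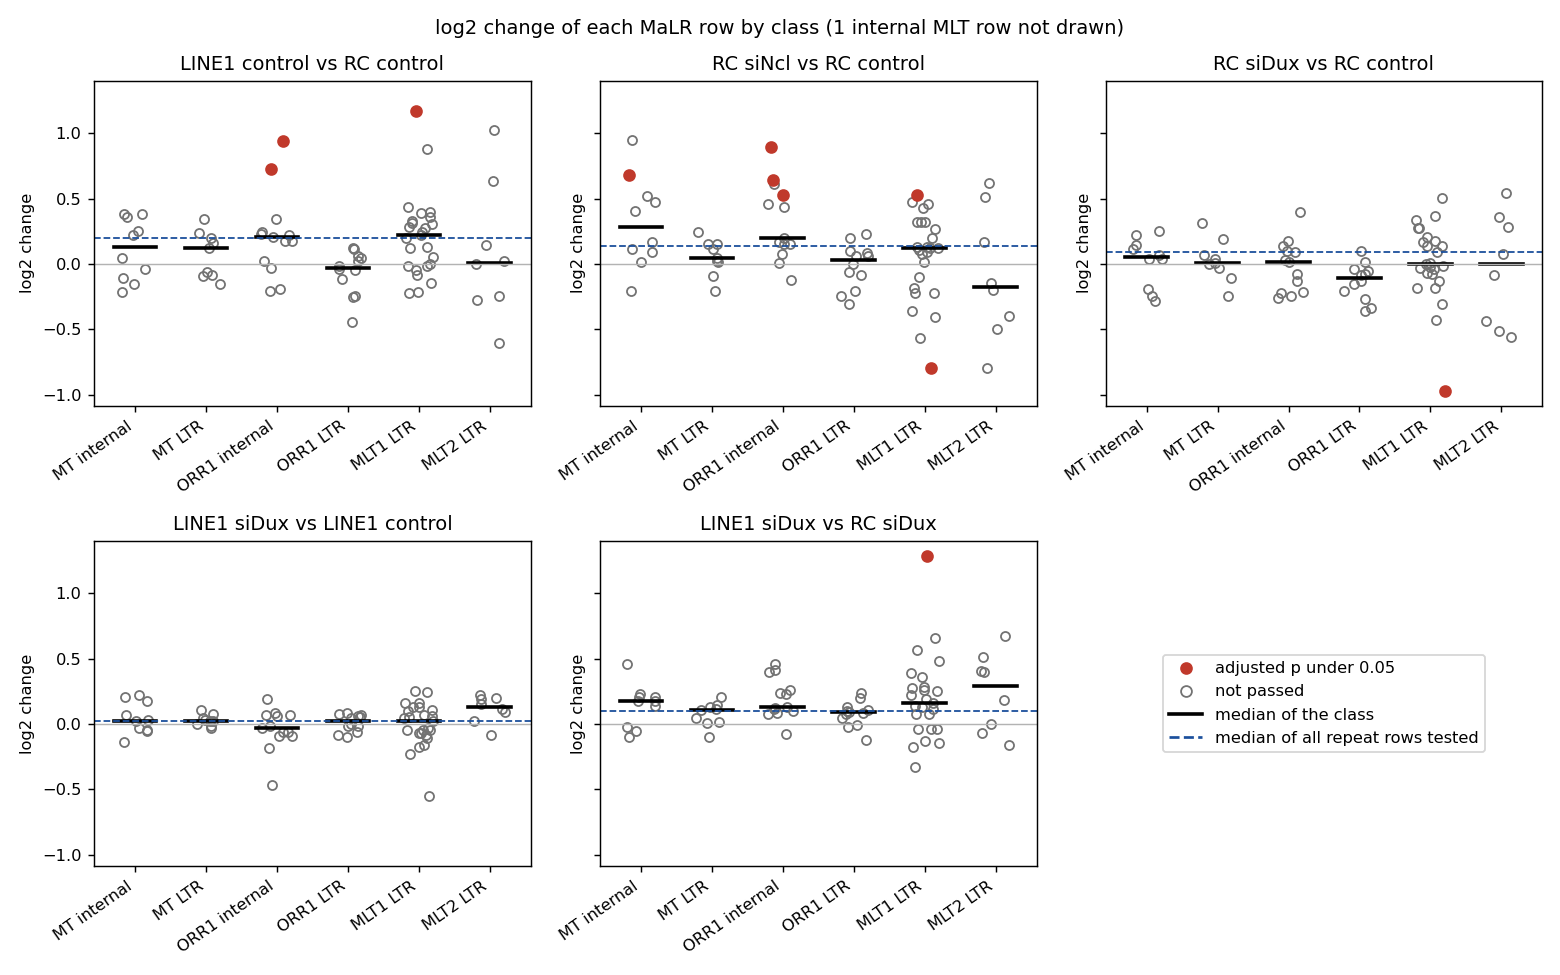
log2 change (vertical axis) of each member in the 5 comparisons, by class and by internal or LTR row (horizontal axis). Filled points passed the test at an adjusted p under 0.05, thick lines are class medians and the dashed line is the median of the 800 repeat rows tested. In RC siNcl, 21 of 23 internal rows of MT and ORR1 lie above 0, beside 13 of 21 LTR rows of MT and ORR1 and 535 of all 800 rows.

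The siDux comparisons asked what siDux adds under each ASO. Dux was not detectably lower in RC siDux, and LINE1 siDux kept 0.459 to 0.642 CPM of it, above RC control at 0.0957 to 0.410 CPM. Under RC ASO 1 member passed, and it fell. MLT1G3 was at 3.04, 4.06 and 3.33 CPM in RC siDux, against 5.54, 8.62 and 6.30 CPM in RC control (log2 change -0.97 ± 0.20, edgeR adjusted p = 0.0376), without overlap. It was also the 1 row of all 800 that fell (0.125%). Among the markers Gata6 and Klf4 were higher in RC siDux (edgeR log2 change 1.93 ± 0.49 and 0.51 ± 0.14). Mean Pou5f1, Sox2, Utf1 and Dppa5a were lower in RC siDux (1046, 496, 311 and 1031 CPM against 1252, 568, 333 and 1814 CPM). The means of the other ES cell markers were higher, and the median log2 change of all 8 was -0.02. The part of these markers was not tested. The MLT1G3 call was lost without RC control replicate 2 (-0.78), RC siDux replicate 1 or RC siDux replicate 3, with ERCC scaling, and in a fit of the 6 libraries alone.

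ORR1A3-int did not differ detectably between RC siDux and RC control, at 22.8, 22.6 and 23.7 CPM in RC siDux (log2 change 0.03 ± 0.16, adjusted p = 0.949). Class medians were 0.04 for MT, -0.08 for ORR1, 0.00 for MLT1 and 0.00 for MLT2, beside 0.09 for all rows. Without RC control replicate 2 the ORR1 median was 0.12, beside 0.10 for all rows. Groups did not overlap in 6 members that were higher and 2 that were lower in RC siDux, against 12.4% and 5% of all rows.

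Under LINE1 ASO, no member passed between LINE1 siDux and LINE1 control by edgeR or by DESeq2, where 0.25% of the rows tested fell and none rose. At an unadjusted p under 0.05 there were 2 members, both lower, and 15 of the 800 rows. ORR1A3-int was at 27.7, 27.7 and 26.0 CPM in LINE1 siDux, against 38.9, 34.9 and 38.4 CPM in LINE1 control. The groups did not overlap, yet the log2 change of -0.46 ± 0.15 had an adjusted p of 0.994 by edgeR. MLT1G3 was at 4.80, 3.71 and 3.33 CPM in LINE1 siDux, against 6.25, 5.88 and 5.29 CPM in LINE1 control (-0.55 ± 0.18, adjusted p = 0.994).

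MT, ORR1 and MLT1 rows had medians of 0.02, -0.01 and 0.03 in LINE1 siDux against LINE1 control, beside 0.02 for all rows. Groups did not overlap in 1 member that was higher and 4 that were lower, against 2.75% and 4.62% of all rows. The interaction of ASO and siDux, which asks whether the effect of siDux differed between the 2 ASOs, gave no member past the threshold by edgeR or DESeq2. ORR1A3-int was the 1 member with an unadjusted p under 0.05 there, among 25 of the 800 rows (difference of log2 changes -0.49 ± 0.22, adjusted p = 0.923).

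LINE1 ASO was also compared with RC ASO under siDux. MLT1G rose again, with 129, 82 and 73 counts in LINE1 siDux against 16, 13 and 30 counts in RC siDux, or 4.36, 3.42 and 3.12 CPM against 1.32, 1.15 and 1.92 CPM. The log2 change was 1.29 ± 0.26 (edgeR adjusted p = 0.0213) without overlap, and 0.625% of all rows rose. DESeq2 did not call it, and the call was lost with ERCC scaling and without LINE1 siDux replicate 1 or 2 or RC siDux replicate 1 or 2, where its log2 change lay between 1.13 and 1.57 over all libraries left out. MLT1G was thus higher with LINE1 ASO in both sets of 6 libraries, which share no library. The sets are not independent, since both tests came from the same fit. Replicate numbers were also taken to pair each siDux group with its siControl group.

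Here the class medians were 0.13 for MT, 0.10 for ORR1, 0.15 for MLT1 and 0.29 for MLT2, beside 0.10 for all rows. With ERCC scaling they turned to -0.08 for MT, -0.12 for ORR1 and -0.06 for MLT1, beside -0.12 for all rows. ORR1A3-int was at 22.8, 22.6 and 23.7 CPM in RC siDux and slightly above that in each LINE1 siDux library, but did not pass (0.24 ± 0.16, adjusted p = 0.636). In all, 10 members were higher and 2 lower in LINE1 siDux without overlap, against 12.4% and 5.88% of rows.

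Over all 5 groups together, 5 members differed by the edgeR F test, against 7.12% of rows. They were ORR1A3-int (adjusted p = 0.00179), MLT1G (adjusted p = 0.00368), MLT1G3 (adjusted p = 0.00884), MTC-int (adjusted p = 0.0214) and ORR1D1-int (adjusted p = 0.0357). ORR1A1-int was next and did not pass (adjusted p = 0.0715). With 1 library left out the number ran from 3 to 7, and was 3 without RC control replicate 3, RC siNcl replicate 1 or RC siNcl replicate 2, and no member passed with ERCC scaling.

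The 8 members called in any comparison showed different orders of the groups. ORR1A3-int averaged 41.9 ± 8.16 CPM in RC siNcl and 37.4 ± 2.19 CPM in LINE1 control, which overlap, then 27.1 ± 0.970 CPM in LINE1 siDux, and 23.0 ± 0.584 CPM in RC siDux and 22.7 ± 5.64 CPM in RC control, which overlap. MTC-int was highest in RC siNcl at 47.2 ± 4.42 CPM, with each library at or above every other library of the series, against 40.4 ± 3.16 CPM in LINE1 siDux and 35.1 ± 4.53 CPM in LINE1 control. MLT1G was high in both LINE1 ASO groups and MLT1G3 low in both siDux groups and in RC siNcl.

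**Figure D3:**
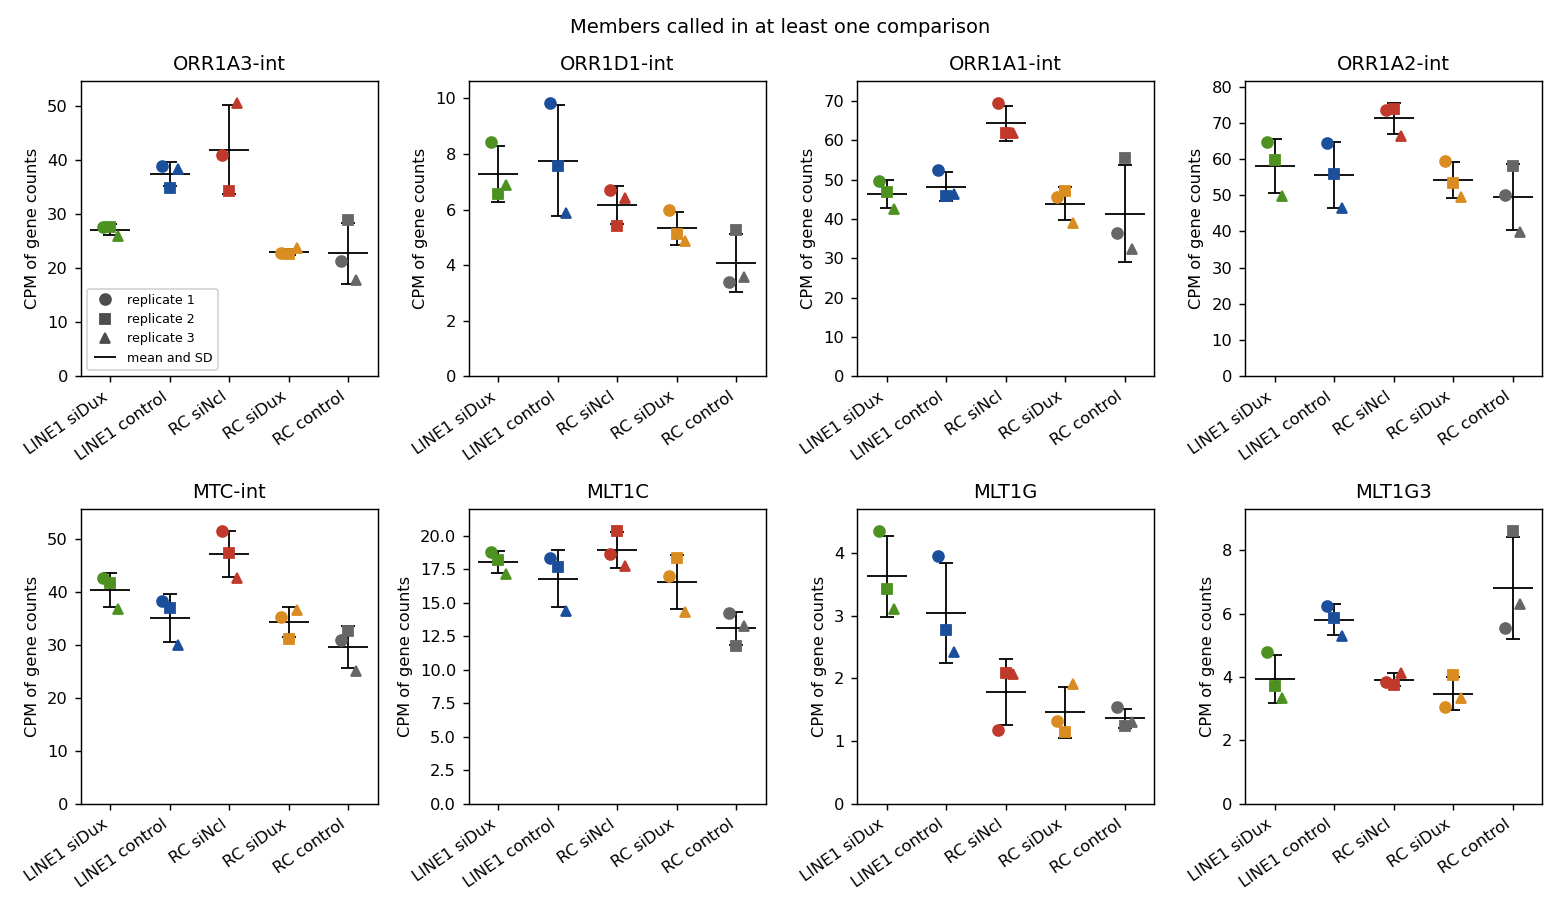
CPM of gene counts (vertical axis, from 0) in each library for the 8 members called in at least one comparison, by group (horizontal axis), with mean and SD over 3 libraries as lines. ORR1A3-int is at 34.4 CPM or more in every RC siNcl and LINE1 control library and at 28.9 CPM or less in the other 9.

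Rodent MT and ORR1 rows were then set against the MLT rows, MLT1 and MLT2 together, by the log2 ratio of their summed counts within each library, which no scaling between libraries can alter. The ratio was 2.95 ± 0.05 in LINE1 siDux, 2.96 ± 0.02 in LINE1 control, 3.07 ± 0.11 in RC siNcl, 2.98 ± 0.05 in RC siDux and 2.99 ± 0.15 in RC control (SD, n = 3 each). Group means differed by -0.03 (LINE1 control minus RC control) and by 0.09 (RC siNcl minus RC control), both smaller than the pooled SDs of 0.11 and 0.13. With 1 library left out they ran from -0.08 to 0.06 and from 0.02 to 0.17, the upper value in each case without RC control replicate 2. RC control replicate 2 was again the high library of its group at 3.16, against 2.93 and 2.88 in the other two. Summed MLT1 rows averaged 286 ± 21.2 CPM in LINE1 siDux, 286 ± 28.3 CPM in LINE1 control, 277 ± 8.12 CPM in RC siNcl, 267 ± 16.3 CPM in RC siDux and 269.9 ± 22.3 CPM in RC control. The ratio overlapped between groups in all 5 comparisons, while RC siNcl lay above LINE1 control without overlap, by 0.11. Among the fixed MLT1 rows that were not called, MLT1A0 and MLT1D had log2 changes of 0.13 and -0.05 in LINE1 control and of 0.19 and 0.02 in RC siNcl, each against RC control.

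Internal rows were set against LTR rows in the same way. Over MT and ORR1 together the log2 ratio was -0.63 ± 0.04 in LINE1 siDux, -0.57 ± 0.04 in LINE1 control, -0.46 ± 0.04 in RC siNcl, -0.60 ± 0.04 in RC siDux and -0.56 ± 0.09 in RC control. RC siNcl overlapped RC control, whose replicate 2 was at -0.46. For ORR1 alone the ratio was -0.41, -0.48 and -0.41 in RC siNcl, against -0.69, -0.79 and -0.73 in RC control, and the RC siNcl libraries were above all 12 others. LINE1 control also lay above RC control without overlap, at -0.62, -0.64 and -0.54. For MT alone it was -0.42, -0.48 and -0.57 in RC siNcl, against -0.56, -0.20 and -0.51 in RC control, which overlap.

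Single elements, each a subfamily, were compared by the log2 ratio of the internal row to the LTR row of the same name. Both rows are totals over the copies of a subfamily, so internal and LTR reads need not come from the same copies. The repeat table held 32 such pairs of rows, 21 of them MaLR, and limma was fitted over all 32. This comparison was chosen after the data had been seen. In RC siNcl against RC control the ratio rose in 9 of the 21 MaLR pairs, against 31.2% of all pairs. Of the 21 differences 18 were positive, with a median of 0.35, beside 24 of all 32 pairs, with a median of 0.23. Of the other 11 pairs 1 rose and 1 fell.

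ORR1A3 had the largest difference of these. Its log2 ratio was -0.23, -0.40 and 0.30 in RC siNcl, against -1.01, -1.57 and -1.09 in RC control, a difference of 1.11 ± 0.18 (SE, limma adjusted p = 0.000783). MTC was at -1.27, -1.28 and -1.30 in RC siNcl, against -1.75, -1.80 and -1.87 in RC control (0.53 ± 0.10, adjusted p = 0.00191). Neither pair overlapped between groups.

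ORR1D1 differed by 0.54 ± 0.13 and ORR1A1 by 0.42 ± 0.10 (limma adjusted p = 0.00559 for both). ORR1A2 (0.33 ± 0.10), ORR1B1 (0.40 ± 0.14), MTB_Mm (0.71 ± 0.25), MTE2a (0.36 ± 0.11) and MTE2b (0.45 ± 0.16) passed as well, with limma adjusted p between 0.0218 and 0.0425. MTA_Mm, the most counted element, differed by -0.09 ± 0.11 and ORR1A0, a young ORR1 element, by 0.03, neither of which passed.

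ORR1A3, MTC, ORR1D1 and ORR1A1 passed with any 1 of the 6 libraries left out. The number of MaLR pairs was 5 without RC siNcl replicate 2 or replicate 3, 6 without RC control replicate 2, and 3 in a fit of the 6 libraries alone.

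**Figure D4:**
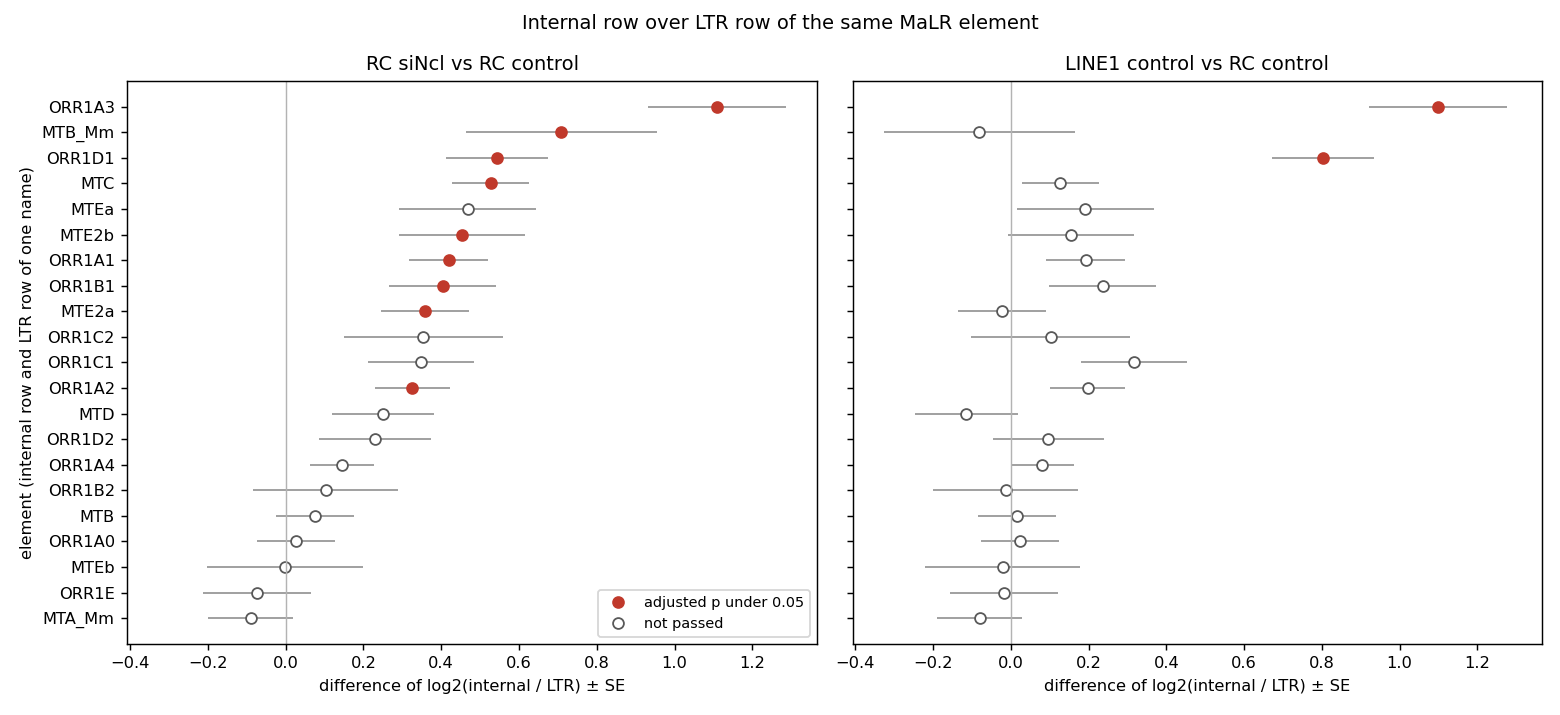
Difference between groups of the log2 ratio of internal to LTR counts (horizontal axis, ± SE) for the 21 MaLR elements with both rows (vertical axis). Filled points passed at an adjusted p under 0.05, with 9 in RC siNcl against RC control and 2, ORR1A3 and ORR1D1, in LINE1 control against RC control.

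The same ratios were compared with other references. Against RC siDux, the ratio was higher in RC siNcl for 6 of 21 MaLR pairs and 0 of the other 11 (18.8% of all pairs). The 6 were ORR1A3 (0.80 ± 0.18, limma adjusted p = 0.0175), MTC, MTD, ORR1D2, MTEa and MTB_Mm. Of the 21 differences 20 were positive, beside 24 of all 32 pairs. ORR1A3 passed with any library left out, and the number was 1 without RC siNcl replicate 1 or 2, 2 without RC siNcl replicate 3 or RC siDux replicate 1, and 3 without RC siDux replicate 3. Against LINE1 control, MTC was the 1 MaLR pair that was higher in RC siNcl (0.40 ± 0.10, limma adjusted p = 0.0208), where 6.25% of all pairs were. That call was lost without LINE1 control replicate 1 or 3 or RC siNcl replicate 1 or 2, at differences between 0.36 and 0.45.

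In LINE1 control against RC control the ratio rose in 2 of the 21 MaLR pairs and in 0 of the other 11, which makes 6.25% of all pairs. ORR1A3 was at -0.17, -0.28 and 0.08 in LINE1 control, against -1.01, -1.57 and -1.09 in RC control (1.10 ± 0.18, limma adjusted p = 0.000316). ORR1D1 was at -2.84, -3.04 and -3.00 in LINE1 control, against -4.00, -3.66 and -3.64 in RC control (0.80 ± 0.13, adjusted p = 0.000316). Both passed with any 1 library left out, ORR1A3 at 0.93 without RC control replicate 2.

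With siDux under LINE1 ASO the ORR1A3 ratio was -0.67, -0.64 and -0.64 in LINE1 siDux, below each LINE1 control library and above each library of RC siDux, the highest of which was at -0.84. The difference between LINE1 siDux and LINE1 control was -0.53 ± 0.18, which did not pass (limma adjusted p = 0.328). No MaLR pair passed in either siDux comparison or between LINE1 siDux and RC siDux by limma, the 1 method used for pairs, where 3, 1 and 1 MaLR pairs had an unadjusted p under 0.05, and 5, 1 and 3 of all 32 pairs. That fit had group terms only. A replicate block was not run for these ratios in the siDux comparisons, although replicate numbers were taken to match their libraries.

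**Figure D5:**
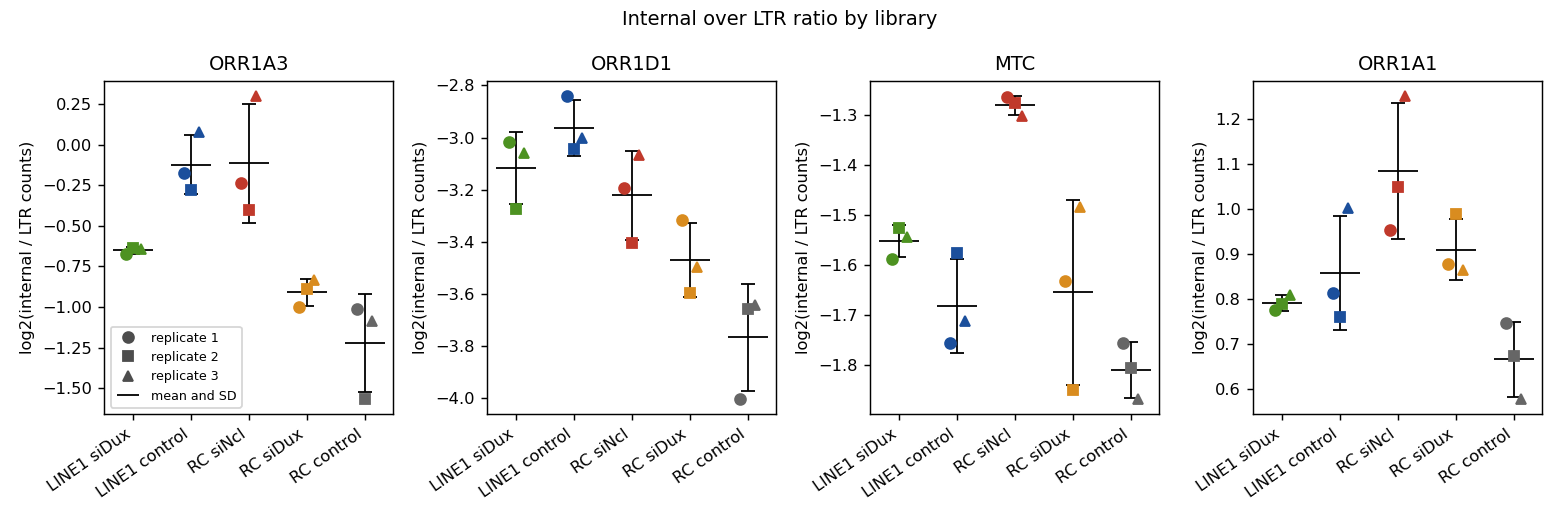
log2 ratio of internal to LTR counts (vertical axis, each panel on its own scale) in each library for 4 elements, by group (horizontal axis), with mean and SD over 3 libraries as lines. For MTC the 3 RC siNcl libraries lie between -1.30 and -1.27, above the other 12.

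The autonomous ERVL relatives of the MaLRs were measured beside them. MERVL-int, the coding region of the mouse ERVL element, was at 790, 686 and 958 CPM in LINE1 siDux, 2117, 1811 and 2048 CPM in LINE1 control, 1611, 1635 and 3097 CPM in RC siNcl, 464, 477 and 417 CPM in RC siDux, and 651, 369.9 and 568 CPM in RC control. It rose by 1.91 ± 0.23 on the log2 scale in LINE1 control and by 2.00 ± 0.23 in RC siNcl, each against RC control (edgeR adjusted p = 4.05e-05 and 2.20e-05). As for ORR1A3-int, RC siNcl replicate 3 was its highest library, and the LINE1 siDux libraries lay between those of LINE1 control and RC siDux. Its LTR MT2_Mm rose by 1.51 ± 0.18 and 1.66 ± 0.18 in these comparisons.

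MERVL-int and MT2_Mm fell in LINE1 siDux against LINE1 control (log2 change -1.30 ± 0.22 and -1.16 ± 0.17, edgeR adjusted p = 0.00593 and 0.002). The 7 MERVL and MT2 rows were not uniform, since MT2A, MT2B and MT2B2 did not pass in any of the 5 comparisons between groups. RC control replicate 2, the highest library for many MaLR LTRs, was the lowest of its group for MERVL-int at 369.9 CPM.

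Genes that repress ERVL, MaLR and other retroviral elements were listed from background knowledge, 20 in all. In LINE1 control 2 rose and 7 fell against RC control, where 9.33% and 9.72% of all genes did, with a median log2 change of -0.16 beside 0.02 for all genes. Trim28, the corepressor that zinc finger proteins recruit to endogenous retroviruses, was at 1676, 1957 and 2342 CPM in LINE1 control, against 2789, 2817 and 2485 CPM in RC control (log2 change -0.44 ± 0.11, edgeR adjusted p = 0.0165). Cbx1, a heterochromatin protein, fell by 0.49 ± 0.10, Kdm1a, a histone demethylase that represses MERVL in mouse ES cells, by 0.36 ± 0.08, and Ehmt2, a histone H3 lysine 9 methyltransferase, by 0.53 ± 0.13 on the log2 scale.

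In RC siNcl 1 of the 20 rose and 9 fell against RC control, where 16.8% and 15.7% of all genes did. Cbx1 was at 183, 167 and 141 CPM in RC siNcl, against 246, 300.0 and 251 CPM in RC control (log2 change -0.70 ± 0.10, edgeR adjusted p = 5.01e-05). Zfp42, a pluripotency-associated zinc finger protein that binds ERVL elements in mouse ES cells, fell by 0.80 ± 0.14 and Trim28 by 0.55 ± 0.11. Atf7ip, the partner of the methyltransferase Setdb1, went the other way, at 170, 161 and 182 CPM in RC siNcl against 108, 75.5 and 109 CPM in RC control (0.81 ± 0.11, adjusted p = 5.08e-05).

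With siDux under RC ASO 1 of the 20 rose and 4 fell, where 6.11% and 4.51% of genes did, namely Cbx1, Cbx3, Hdac1 and Pcgf6 with log2 changes from -0.49 to -0.27. In LINE1 siDux against LINE1 control none passed by edgeR, where 0.546% and 0.307% of genes rose and fell, and Hdac1 had the smallest adjusted p, 0.183. Between LINE1 siDux and RC siDux Ehmt2 alone of the 20 passed (-0.49 ± 0.13, edgeR adjusted p = 0.0462), where 2.3% of genes rose and 0.75% fell.

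The second list held 2-cell-like genes, which mark the few ES cells that carry transcripts of the 2-cell embryo, with 9 of 12 names in the table. Their summed level was 33.1 to 43.4 CPM in LINE1 siDux, 113 to 140.2 CPM in LINE1 control, 71.1 to 126 CPM in RC siNcl, 2.91 to 4.80 CPM in RC siDux and 15.8 to 20.9 CPM in RC control. They rose in 8 of 9 cases in LINE1 control and in RC siNcl, each against RC control. They fell in 6 of 9 in RC siDux and in 7 of 9 in LINE1 siDux, each against the siControl group of the same ASO. In LINE1 siDux against RC siDux 7 of 9 rose, with a median log2 change of 3.91, beside 2.85 in LINE1 control against RC control. Zscan4f, a zinc finger gene of that state, rose by 3.47 ± 0.30 on the log2 scale in LINE1 control against RC control (edgeR adjusted p = 5.57e-06) and by 2.88 ± 0.31 in RC siNcl, and fell by 1.95 ± 0.25 in LINE1 siDux against LINE1 control. Their part in the MaLR values was not tested.

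The count minimum fell among old MLT1 rows. Just inside it were MLT1E1 and MLT1J1, with mean counts of 20.2 and 20.3, and just outside MLT1N2 and MLT1H2, with 19.9 and 19.2. In LINE1 control against RC control their log2 changes were -0.21 and 0.30 inside and 0.89 and 0.67 outside. The treatment of multiply matching reads was not given in the sources used here, and values of near-identical subfamilies are uncertain, and reads from copies inside genes are counted with the others.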

How the data were processed

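RNA of 15 libraries in 5 groups of 3 was analysed from 2 deposited tables of raw counts, which the authors made on mm9, 1 for genes (23284 rows, plus 92 for ERCC spike-ins) and 1 for repeat subfamilies (1217 rows). Per the submitters' processing notes, Trim Galore 0.4.0, TopHat2 2.0.9, R 3.3.0 and DESeq2 1.12.3 were used. Their treatment of multiply matching reads was not given in the sources used here.

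Repeat counts took library sizes and TMM factors from the gene table without ERCC rows. In R 4.3.3, edgeR 4.0.16 (glmQLFit and glmQLFTest) was fitted to the 15 libraries with 1 term per group (10 residual degrees of freedom) on rows kept by filterByExpr, which left 800 repeat rows. Genes were tested likewise on 14661 rows. P-values were adjusted by Benjamini-Hochberg over all rows, with a threshold of 0.05. Errors are SE for log2 changes and SD for levels. Log2 ratios of internal to LTR counts, with 0.5 counts added, were tested with limma 3.58.1. Scripts were tested on simulated data. Gene totals of 9.55 M to 27.6 M set the precision, and rows with few counts are the least certain.

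Members and lists were chosen with earlier results of these data known. Named are a fixed set of MT, ORR1 and MLT1 rows, called members, members with the smallest F test p, extremes per class, rows at the count minimum, MERVL and MT2 rows, and up to 4 genes per list in each comparison. ES cell and endoderm markers named are those called, and some whose group means went the other way. Pairs of internal and LTR rows, their references and the account of RC control replicate 2 were added after the data had been seen, and the pairs named are those called plus MTA_Mm and ORR1A0.

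Alternatives were RLE factors, the repeats' own totals, ERCC scaling, no filter, a mean count of at least 100, DESeq2 1.42.0, the replicate block, the compared libraries alone, and each library left out. Over genes, deviations of same-numbered libraries correlated by 0.150, 0.183 and 0.252 (RC siDux with RC control) and 0.437, 0.259 and 0.527 (LINE1 siDux with LINE1 control), all over the limit of 0.1 (over repeat rows 0.133, 0.0444 and 0.0575, and 0.298, 0.101 and 0.373), so replicate numbers were taken to pair the siDux comparisons. The labels name no shared culture or day. The main fits had group terms only, and for internal over LTR ratios the block was not run in the siDux comparisons.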

Additional observations from a re-analysis of the deposited data

How the results depend on the processing

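Gene counts of 9.55 M to 27.6 M limit what could be called among rows with few counts. ERCC scaling brings in the spread of the ERCC share within groups, 0.303% to 0.647% in RC control. No member or pair that was called changed direction under the alternatives run. Shares over all rows are not given for the counts under the alternatives, here or above, so these counts are not read as results about MaLR rows. With ERCC scaling the count of members was 0 for every comparison and for the F test, and it moved the median of all repeat rows to 0.41 in LINE1 control, 0.17 in RC siNcl and 0.41 in RC siDux against RC control, -0.09 in LINE1 siDux against LINE1 control and -0.12 against RC siDux. A fit of the compared libraries alone gave 0 higher members in LINE1 control and in RC siNcl, and 0 lower ones in RC siNcl and RC siDux, with 2 groups and so fewer residual degrees of freedom. A mean count of at least 100, which leaves out the row called, gave 0 lower in RC siNcl and RC siDux, 0 higher in LINE1 siDux against RC siDux, and 3 by the F test. DESeq2 gave 0 higher in LINE1 siDux against RC siDux, and the repeats' own totals 1 lower in LINE1 control; the cause was not tested. With the replicate block there were 6 higher members in LINE1 control, 10 in RC siNcl and 13 by the F test, and it changed no count of the paired siDux comparisons. Gene correlations of same-numbered libraries were 0.0766, 0.146 and 0.216 (LINE1 control with RC control) and 0.0710, 0.141 and 0.375 (RC siNcl with RC control). All were positive, but the lowest of each lay under the limit of 0.1, so these groups were not taken as paired. Whether replicate numbers mark a shared batch was not tested. With libraries left out one at a time, counts ranged from 0 to 6 higher and 0 to 2 lower in LINE1 control, 2 to 5 and 0 to 2 in RC siNcl, 0 to 1 lower in RC siDux, 0 to 1 higher in LINE1 siDux against RC siDux, and 3 to 7 by the F test. The mean of log2 CPM over members in place of sums gave differences in internal over LTR of 0.16 in LINE1 control, 0.30 in RC siNcl and 0.051 in RC siDux against RC control, and 0.090 in LINE1 siDux against RC siDux, where it gave -0.075 for MT and ORR1 over MLT. Of these internal over LTR differences, all but the RC siNcl one changed sign, from differences whose groups overlapped. MaLR pairs that rose numbered 3 in RC siNcl against RC control and 3 against RC siDux in fits of the compared libraries alone. Against LINE1 control they numbered 3 with a pseudocount of 1, 2 with both rows of at least 100 counts, 4 with the replicate block and 0 with the compared libraries alone. With a library left out they ranged from 5 to 8, 1 to 4 and 0 to 2 against RC control, RC siDux and LINE1 control.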

Other observations

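Replicate 3 had the lowest summed MT and ORR1 level in all 5 groups. In the pairs of internal and LTR rows outside MaLR, the ratio for RLTR19 fell by 1.26 ± 0.14 on the log2 scale in LINE1 control and by 0.68 ± 0.14 in RC siNcl, and that for RMER16 was higher in RC siNcl by 1.19 ± 0.26, each against RC control (limma adjusted p = 2.03e-05, 0.00372 and 0.00372). These 2 pairs were chosen after their values were seen.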
